A study of Mus musculus with 32 samples.

Results

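The genes described here are 35 genes of the type I interferon response, given as a list of symbols and followed by their read counts in whole mouse femur marrow. All 35 had a row among the 41388 genes counted, and all 35 passed the filter on low counts that left 14527 genes to test. The list was not chosen by a threshold on measured values, although it was drawn up with earlier results of these data known. Members are grouped below as 3 transcription factors, 4 nucleic acid sensors, 6 oligoadenylate synthetases, 4 IFIT proteins, 3 genes of the ISG15 system, 8 restriction factors and other effectors, 3 genes of the PARP and DTX3L group and 4 other induced genes.

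Total RNA of femur marrow was sequenced in 32 libraries from C57BL/6 mice aged 2 months, in 8 groups of 4. The DTRADQ mice carried the inducible diphtheria toxin receptor (iDTR, a floxed allele) and adiponectin-Cre, which switches the receptor on in cells that express adiponectin, and the controls were their Cre-negative littermates with the floxed allele only. Each genotype was sampled without diphtheria toxin (DT) and after 1, 2 or 3 days of daily intraperitoneal DT at 100 ng per mouse, so the treated controls received the toxin too. In marrow the adiponectin-Cre driver acts in fat cells and in the perivascular stromal cells that support blood formation. Summed over 8 stromal markers of this lineage, the level was 34.5 to 58.4 CPM (counts relative to library size, with sizes scaled by TMM) in the 12 DTRADQ libraries after DT and 406 to 747 CPM in the 12 control libraries after DT.

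Type I interferons are secreted proteins, the many alpha forms and beta among them, that cells release when they sense foreign or misplaced nucleic acid. They bind the receptor IFNAR, whose kinases JAK1 and TYK2 phosphorylate STAT proteins, STAT2 among them. STAT2 and IRF9 are part of the factor ISGF3, which binds an interferon-stimulated response element in the promoters of target genes. Plasmacytoid dendritic cells are a major source of alpha interferon, and in marrow type I interferon is known to draw blood stem cells out of quiescence.

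Library totals ran from 8966165 to 22929352 counts. The labels give lane 8 for the 8 libraries of day 3 and all lanes for the other 24, so comparisons between genotypes on the same day are within 1 lane label and comparisons of day 3 with no DT are not. Replicates 3 and 4 of the controls without DT stood apart. Their totals were the smallest, 9490569 and 8966165 counts, with 37.4% and 50.7% of counts in their 10 most abundant genes against 19.4% to 30.9% in the other 30 libraries. Results that rest on them are therefore given with and without them.

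The promoters of 26 of the 35 members were in the RefSeq table of the GRCm38.p6 build, each 300 bases long, from 250 before the transcript start to 50 after it. No promoter was in it for Dhx58, Mx1, Mx2, Rtp4, Parp9, Parp14, Usp18, Zbp1 or Oas2. A core of the response element was searched on both strands as GAAA, any 2 bases and GAAA again, which reads TTTC, any 2 bases and TTTC on the opposite strand. It was present in the promoters of 13 of 26 members (50%), against 3.44% of all 32851 promoters in the table and 3.99% of the 27025 genes they belong to. A second pattern, the STAT dimer site TTCNNNGAA, was in 6 of 26 (23.1%) against 8.30% of all promoters and 9.55% of genes. The sequences below show 4 members that were higher in DTRADQ marrow at day 3 (Ifit3, Ifit3b, Ddx60 and Oas1g), the member that led at day 2 (Rsad2) and both members that were lower at day 3 (Cmpk2 and Herc6), chosen after their values were seen to set promoters with the core beside promoters without it. Capitals mark each match to this core on either strand, and positions are those of the base at which a match begins, counted from the transcript start.

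Ifit3 lies on the plus strand with its promoter at chr19:34583279-34583578 and has matches at −156 and −122. Ifit3b, next to it at chr19:34607707-34608006 on the same strand, has them at −188 and −154.
Ifit3: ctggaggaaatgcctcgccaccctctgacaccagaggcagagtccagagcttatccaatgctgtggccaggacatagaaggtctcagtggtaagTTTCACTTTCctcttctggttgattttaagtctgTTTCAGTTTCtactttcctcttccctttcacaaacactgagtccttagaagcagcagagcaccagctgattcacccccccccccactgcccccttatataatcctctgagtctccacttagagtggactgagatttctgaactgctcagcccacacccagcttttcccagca
Ifit3b: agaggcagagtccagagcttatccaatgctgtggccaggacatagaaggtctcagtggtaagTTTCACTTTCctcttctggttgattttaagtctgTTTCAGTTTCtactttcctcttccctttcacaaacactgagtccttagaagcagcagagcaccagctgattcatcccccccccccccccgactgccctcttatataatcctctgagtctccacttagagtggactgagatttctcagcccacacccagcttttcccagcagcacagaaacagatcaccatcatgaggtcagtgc
Ddx60, on the plus strand at chr8:61927837-61928136, has matches at −53 and −19. In Oas1g, on the minus strand at chr5:120887564-120887863, matches at −18 and −12 overlap.
Ddx60: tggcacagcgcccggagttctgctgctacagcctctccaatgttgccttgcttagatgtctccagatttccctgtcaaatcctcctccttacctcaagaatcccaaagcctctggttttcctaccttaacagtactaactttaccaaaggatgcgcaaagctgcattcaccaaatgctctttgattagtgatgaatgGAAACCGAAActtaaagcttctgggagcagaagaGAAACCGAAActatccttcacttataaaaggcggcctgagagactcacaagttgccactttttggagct
Oas1g: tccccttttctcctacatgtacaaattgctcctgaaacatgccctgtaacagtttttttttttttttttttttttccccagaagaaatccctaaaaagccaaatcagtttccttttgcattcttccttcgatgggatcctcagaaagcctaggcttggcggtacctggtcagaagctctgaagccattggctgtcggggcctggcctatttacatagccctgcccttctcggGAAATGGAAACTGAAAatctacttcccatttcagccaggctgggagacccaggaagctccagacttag
Rsad2, on the minus strand at chr12:26456403-26456702, has 1 match at −120.
Rsad2: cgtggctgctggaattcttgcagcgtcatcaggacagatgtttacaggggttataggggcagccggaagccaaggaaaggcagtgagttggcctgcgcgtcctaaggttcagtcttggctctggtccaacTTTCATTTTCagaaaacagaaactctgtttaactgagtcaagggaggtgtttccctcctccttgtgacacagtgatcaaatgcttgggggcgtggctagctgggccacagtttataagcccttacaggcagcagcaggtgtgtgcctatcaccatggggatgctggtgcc
Cmpk2, on the plus strand at chr12:26468965-26469264, and Herc6, on the plus strand at chr6:57580742-57581041, hold no match in this window.
Cmpk2: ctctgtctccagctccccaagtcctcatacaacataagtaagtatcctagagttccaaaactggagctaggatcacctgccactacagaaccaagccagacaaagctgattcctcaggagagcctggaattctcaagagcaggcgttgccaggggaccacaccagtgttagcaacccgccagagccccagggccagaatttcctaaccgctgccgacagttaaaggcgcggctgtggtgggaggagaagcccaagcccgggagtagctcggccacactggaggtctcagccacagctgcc
Herc6: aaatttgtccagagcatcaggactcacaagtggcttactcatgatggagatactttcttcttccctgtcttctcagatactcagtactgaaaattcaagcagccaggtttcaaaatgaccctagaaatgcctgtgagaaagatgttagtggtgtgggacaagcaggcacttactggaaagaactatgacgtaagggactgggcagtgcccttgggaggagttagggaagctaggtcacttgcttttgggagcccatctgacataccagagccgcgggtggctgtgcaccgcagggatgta
Of the members with a promoter in the table, the core was present in 6 of 9 that were higher at day 3, in 0 of 2 that were lower and in 7 of 15 that did not pass the test. A match is a description of these letters and not evidence of a bound site.

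The question of the main comparison was whether marrow that had lost the adiponectin lineage differed from control marrow on the same day. After 3 days of DT, 12 of the 35 interferon response genes were higher in DTRADQ marrow and 2 were lower, by edgeR's quasi-likelihood test with Benjamini-Hochberg adjustment over all genes tested. Of all genes tested, 22.9% were called at day 3, 8.80% higher and 14.1% lower. The median log2 change of the members was 0.39, against −0.02 for all genes, with 30 of 35 members positive. After 2 days 2 members were called, both higher, where 8.52% of all genes were called (4.40% higher and 4.12% lower), and the median was 0.03. That count was 4 with DESeq2, with the replicate number as a block or in a model of the day 2 groups alone. The shares of all genes called in those fits are not given here, so these counts have no background beside them. The count was 5 without the 2 untreated control libraries that stood apart. Without those 2 libraries 18 members were called at day 3, while the share of all genes called was 19.3% at day 2 and 33.4% at day 3. They belong to neither group compared on a day of DT. Leaving them out acts on these comparisons only through the fit shared by all groups, including its estimate of the spread. After 1 day no member was called in edgeR or DESeq2, where 3.90% of all genes were (0.888% higher and 3.02% lower), with 2 members at an unadjusted p under 0.05 and a median of 0.15. In bulk marrow, more RNA per cell and a larger share of cells that express these genes cannot be told apart.

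**Figure D1:**
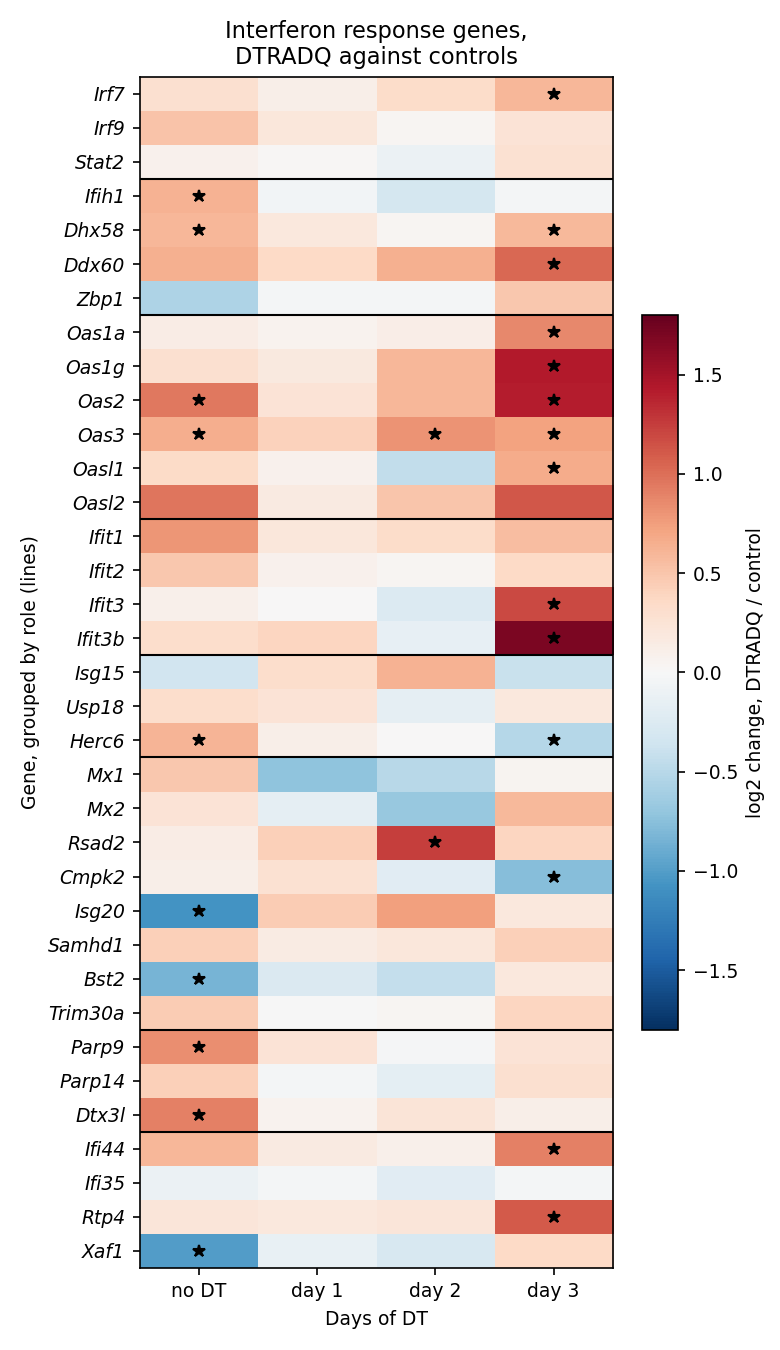
Log2 change of each member (vertical axis, grouped by role) in DTRADQ against control marrow without DT and after 1, 2 or 3 days of DT (horizontal axis), with a star where adjusted p is under 0.05. Day 1 has no star and day 3 has 14, of which 12 are on higher and 2 on lower members.

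Separation of the libraries gave a similar picture at day 3. For 21 members the DTRADQ and control libraries did not overlap, with all 4 DTRADQ libraries above for 19 and below for 2, against 35.3% of all genes tested. At day 2 the groups did not overlap for 7 members, 4 above and 3 below, against 21.5% of all genes, and at day 1 for Mx1 alone, with DTRADQ below, against 14.0%. As a summary of the list, the mean log2 deviation of the 35 members from their own means over all libraries was 0.28 to 0.37 in the 4 DTRADQ libraries at day 3 and −0.45 to 0.08 in the 4 controls. Replicate 4 was the lowest of these controls and replicate 3 the highest.

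**Figure D2:**
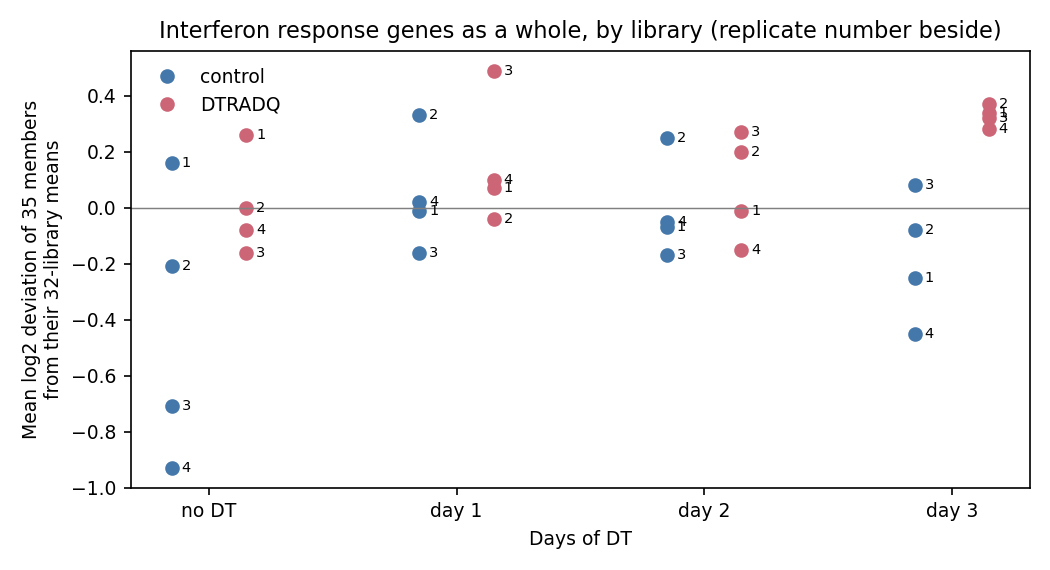
Mean log2 deviation of the 35 members from their means over 32 libraries (vertical axis) for each library by day and genotype (horizontal axis), with replicate numbers beside the points. DTRADQ libraries at day 3 lie between 0.28 and 0.37 and the controls of that day between −0.45 and 0.08, and the lowest points, −0.71 and −0.93, are control replicates 3 and 4 without DT.

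Among the transcription factors, Irf7, which amplifies alpha interferon production and is itself induced by it (ENSMUSG00000025498, chromosome 7, 141262706 to 141266481 in GRCm38), was called at day 3. Its 4 DTRADQ libraries held 126, 127, 133 and 113 CPM and the controls 67.1, 92.2, 103 and 65.5 CPM. The groups did not overlap, and the DTRADQ libraries lay close together. The log2 change was 0.60 (SE 0.21, adjusted p = 0.0384), and the call was lost in 6 of the 8 settings that leave out 1 library of day 3, with adjusted p from 0.0505 to 0.1414. At day 2 Irf7 was 111 ± 17.2 CPM (SD, n = 4) in DTRADQ and 88.3 ± 17.8 CPM in controls, which did not pass.

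Stat2 and Irf9 did not pass between genotypes on any day of DT. Stat2 at day 3 was 31.9, 37.1, 38.5 and 39.7 CPM in DTRADQ and 29.3, 31.1, 30.3 and 31.2 CPM in controls, without overlap but by a log2 change of only 0.27 (adjusted p = 0.1769). Irf9 was 142, 167, 144 and 141 CPM against 109, 128, 145 and 118 CPM, with overlap (0.25, adjusted p = 0.4153).

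Of the sensors, the helicases Dhx58 (LGP2, which modulates MDA5 and RIG-I) and Ddx60 were called higher at day 3, while Ifih1 (MDA5, the receptor for long double-stranded RNA) and Zbp1, which recognises nucleic acid in the Z form, were not. Ddx60 (ENSMUSG00000037921, chromosome 8, 61928087 to 62037701) was 131, 131, 135 and 117 CPM in DTRADQ and 70.0, 65.7, 78.1 and 38.7 CPM in controls. All DTRADQ libraries lay well above the controls, with a log2 change of 1.03 (SE 0.34, adjusted p = 0.0267). Dhx58 was 31.4, 41.3, 36.9 and 36.9 CPM against 22.1, 26.5, 27.8 and 21.3 CPM, again without overlap (0.58, SE 0.19, adjusted p = 0.0264). Ifih1 was 27.6, 25.8, 26.5 and 23.3 CPM against 25.6, 25.7, 30.5 and 24.4 CPM, so the ranges coincided (−0.04, adjusted p = 0.8608). Zbp1 had a log2 change of 0.48 (adjusted p = 0.2103) and overlapping groups.

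Oligoadenylate synthetases make short oligoadenylates that activate RNase L, and their group here also holds OAS-like genes, to which that activity is not ascribed here. The group had more called members at day 3 than any other role. Of 6 genes, 5 were higher, and all 6 had non-overlapping groups. Oas2 (ENSMUSG00000032690, chromosome 5, 120730333 to 120749853) was 32.3, 43.8, 39.9 and 32.4 CPM in DTRADQ and 13.7, 15.5, 18.8 and 7.44 CPM in controls. Every DTRADQ library exceeded every control, and the log2 change was 1.42 (SE 0.30, adjusted p = 7.8e-04). Oas1g (ENSMUSG00000066861, chromosome 5, 120876142 to 120887613) was much less abundant, at 2.89, 3.27, 4.36 and 3.13 CPM against 1.37, 1.20, 1.72 and 0.777 CPM. Its log2 change was 1.43 (SE 0.33, adjusted p = 0.0022).

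Oas3 (0.73, SE 0.19, adjusted p = 0.0057) and Oas1a (0.87, SE 0.31, adjusted p = 0.0395), which lie in the same cluster on chromosome 5, were also higher. Oasl1, an OAS-like protein that in mouse limits translation of Irf7, was higher by 0.67 (SE 0.24, adjusted p = 0.0381). For Oasl2 the libraries were 117, 144, 114 and 94.6 CPM against 46.5, 63.2, 82.3 and 24.3 CPM, without overlap. The log2 change of Oasl2 was among the larger ones, 1.12 (SE 0.42), and missed the threshold at adjusted p = 0.0513. Oasl2 passed without the 2 untreated control libraries that stood apart (1.14, adjusted p = 0.0049). Those are not in this comparison and act only through the shared fit. Oas1a and Oas1g share sequence, with 57.6% of the 50-base words of Oas1a found in Oas1g and 45.2% the other way. How the counting treated reads that map to both is not given in the sources used here, so their values are uncertain.

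Of the IFIT proteins, which bind foreign RNA and block its translation, Ifit3 and Ifit3b were higher at day 3. Ifit3b (ENSMUSG00000062488, chromosome 19, 34607970 to 34613401) had the largest log2 change of the 35 genes at that day. Its libraries were 21.4, 19.5, 19.5 and 15 CPM in DTRADQ and 5.98, 6.51, 8.22 and 2.70 CPM in controls, for a log2 change of 1.69 (SE 0.41, adjusted p = 0.0027). Ifit3 (ENSMUSG00000074896, chromosome 19, 34583531 to 34588731) was 30.4, 29.2, 22.3 and 22.1 CPM against 11.2, 12.2, 15.7 and 6.58 CPM. Both genes separated the genotypes fully, and for Ifit3 the change was 1.19 (SE 0.30, adjusted p = 0.0038). In the 3 other DTRADQ groups their means stayed between 6.90 and 8.24 CPM for Ifit3b and between 12.8 and 13.1 CPM for Ifit3. The genes are close copies, with 51.2% of the 50-base words of Ifit3 in Ifit3b and 44.5% the other way, and their counts are uncertain for the same reason. Ifit1 (0.56, adjusted p = 0.2090), with non-overlapping groups, and Ifit2 (0.36, adjusted p = 0.1913) did not pass. Ifit1 passed without the 2 untreated control libraries that stood apart (0.59, adjusted p = 0.0146), again only through the shared fit.

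**Figure D3:**
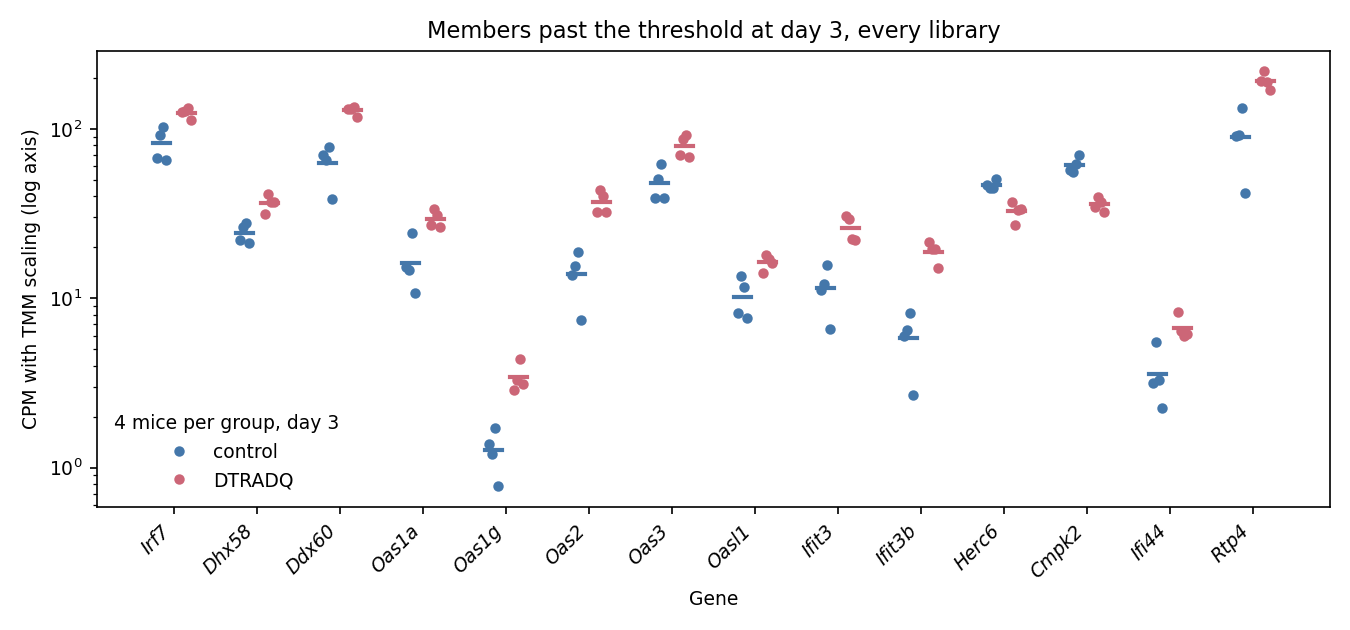
CPM with TMM scaling (vertical log axis) of the 14 members called at day 3 (horizontal axis) in each of the 4 control and 4 DTRADQ libraries, with bars at the means. The DTRADQ points lie above all controls for 12 genes, such as Ifit3b with 15 to 21.4 against 2.70 to 8.22 CPM, and below them for Herc6 and Cmpk2.

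In the ISG15 system, 1 of 3 genes was called at day 3, and it was lower. Isg15 encodes a ubiquitin-like protein, Usp18 removes it from targets and dampens the receptor, and Herc6 is the main enzyme that attaches it in mouse. Herc6 (ENSMUSG00000029798, chromosome 6, 57580992 to 57665136) was 37.0, 26.9, 33.2 and 33.8 CPM in DTRADQ and 46.4, 45, 44.7 and 50.7 CPM in controls. It was lower in every DTRADQ library, with a log2 change of −0.51 (SE 0.16, adjusted p = 0.0173). Isg15 was 171, 135, 166 and 120 CPM against 178, 171, 235 and 199 CPM, meeting only at the edge (−0.40, adjusted p = 0.1800). At day 2 Isg15 was 244, 325, 223 and 428 CPM against 138, 238, 223 and 196 CPM, which did not pass either (0.62, adjusted p = 0.0649). It passed without the 2 untreated control libraries that stood apart (0.63, adjusted p = 0.0263), again only through the shared fit. Usp18 at day 3 had a log2 change of 0.19 (adjusted p = 0.6805).

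Among the restriction factors and other effectors, the neighbours Rsad2 and Cmpk2 differed in their days and direction. They lie 12751 bases from each other on chromosome 12 in opposite orientations, and the GENCODE annotation of GRCm38 places no gene between them. Rsad2 encodes viperin, which makes a chain-terminating nucleotide, and Cmpk2 encodes a nucleotide kinase of mitochondria. Rsad2 (ENSMUSG00000020641, 26442753 to 26456452) was highest in DTRADQ at day 2, with 887, 1373, 948 and 1942 CPM against 379, 546, 691 and 569 CPM in controls. Replicates 2 and 4 of DTRADQ were far above the others, and none of the 4 overlapped the controls. The log2 change of 1.24 (SE 0.21, adjusted p = 3.0e-04) had the smallest adjusted p of any member between genotypes after DT. At day 1 the values were 873, 674, 994 and 989 against 468, 773, 669 and 712 CPM, and at day 3 they were 803, 500, 756 and 642 against 481, 482, 501 and 592 CPM. Those groups overlapped, and at day 3 the change of 0.39 did not pass (adjusted p = 0.1857).

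Cmpk2 (ENSMUSG00000020638, 26469204 to 26479835) at day 3 was 34.7, 39.7, 37.2 and 32.3 CPM in DTRADQ and 57.5, 55.6, 62.1 and 70.0 CPM in controls. Each DTRADQ library was below each control, with a log2 change of −0.77 (SE 0.16, adjusted p = 7.0e-04). At day 2, when Rsad2 was at its peak, Cmpk2 was 54.0 ± 12.8 CPM (SD, n = 4) in DTRADQ and 62.4 ± 11.6 CPM in controls. At day 1 it was 75.5 ± 12.5 and 62.4 ± 8.27 CPM, and neither day passed.

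The other effectors did not pass between genotypes on any day of DT with all libraries. Mx1, a GTPase that blocks influenza virus and is defective in many laboratory mouse strains, was 4.04, 3.87, 5.63 and 3.20 CPM in DTRADQ at day 1 against 5.76, 8.75, 5.77 and 7.59 CPM. Those groups did not overlap, and the log2 change was −0.73 (adjusted p = 0.1006). Without the 2 control libraries that stood apart it was the 1 member called at day 1 (adjusted p = 0.0407). The share of all genes called at day 1 in that fit is not given here. Samhd1, which breaks down deoxynucleotides (0.43), Trim30a, a brake on NF-kB (0.38), and Mx2 (0.58) had positive changes at day 3, with adjusted p from 0.1246 to 0.2292. Without the 2 control libraries, Samhd1 (0.45, adjusted p = 0.0066) and Trim30a (0.40, adjusted p = 0.0279) passed at day 3 and Isg20 at day 2 (0.75, adjusted p = 0.0065). Those libraries are in none of these comparisons, and leaving them out acts only through the shared fit. Isg20, an RNA exonuclease, and Bst2 (tetherin, which holds budding virus at the cell surface) both changed by 0.19 at day 3 (adjusted p = 0.6463 and 0.5117).

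The partners Parp9 and Dtx3l, which together add ADP-ribose and ubiquitin to targets, and Parp14 did not pass between genotypes after DT, with day 3 changes of 0.24, 0.11 and 0.29. Parp9 at day 3 was 44.1, 51.7, 44.4 and 47.4 CPM against 37.1, 43.2, 41.3 and 37.5 CPM, just without overlap. Dtx3l was 57.6, 54.3, 57.0 and 56.2 CPM against 58.3, 55.3, 51.1 and 44.1 CPM, with overlap. The 2 genes overlap by 458 bases on opposite strands, and since the strand setting of the counting is not given in the sources used here, reads there cannot be assigned to either.

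Of the 4 remaining induced genes, Rtp4 and Ifi44 were higher at day 3. Rtp4, a chaperone of opioid and taste receptors, was 192, 218, 189 and 169 CPM in DTRADQ and 90.2, 91.6, 133 and 41.8 CPM in controls (1.11, SE 0.37, adjusted p = 0.0269). Ifi44 was 8.28, 6.43, 5.95 and 6.15 CPM against 3.16, 5.52, 3.30 and 2.25 CPM (0.91, SE 0.29, adjusted p = 0.0213). Neither overlapped. Xaf1, a promoter of cell death that antagonises XIAP, was 24.4, 21.3, 20.8 and 29.9 CPM against 17.3, 18.9, 15.5 and 23.2 CPM, with overlap (0.36, adjusted p = 0.2145). Ifi35 had a log2 change of −0.04 (adjusted p = 0.9053), and 16.8% of its length overlaps Gm11626 on the opposite strand.

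Per kilobase of gene length at day 3, the most abundant members in controls were Isg15 (259 CPM per kb), Isg20 (249) and Rsad2 (119), and the least abundant were Mx2 (0.438), Oas1g (0.540) and Ifi44 (0.581). The 14 called members spanned the range from low to moderate levels, from Oas1g up to Rtp4 at 56.7 CPM per kb, and none of the 3 most abundant members was called at that day.

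**Figure D4:**
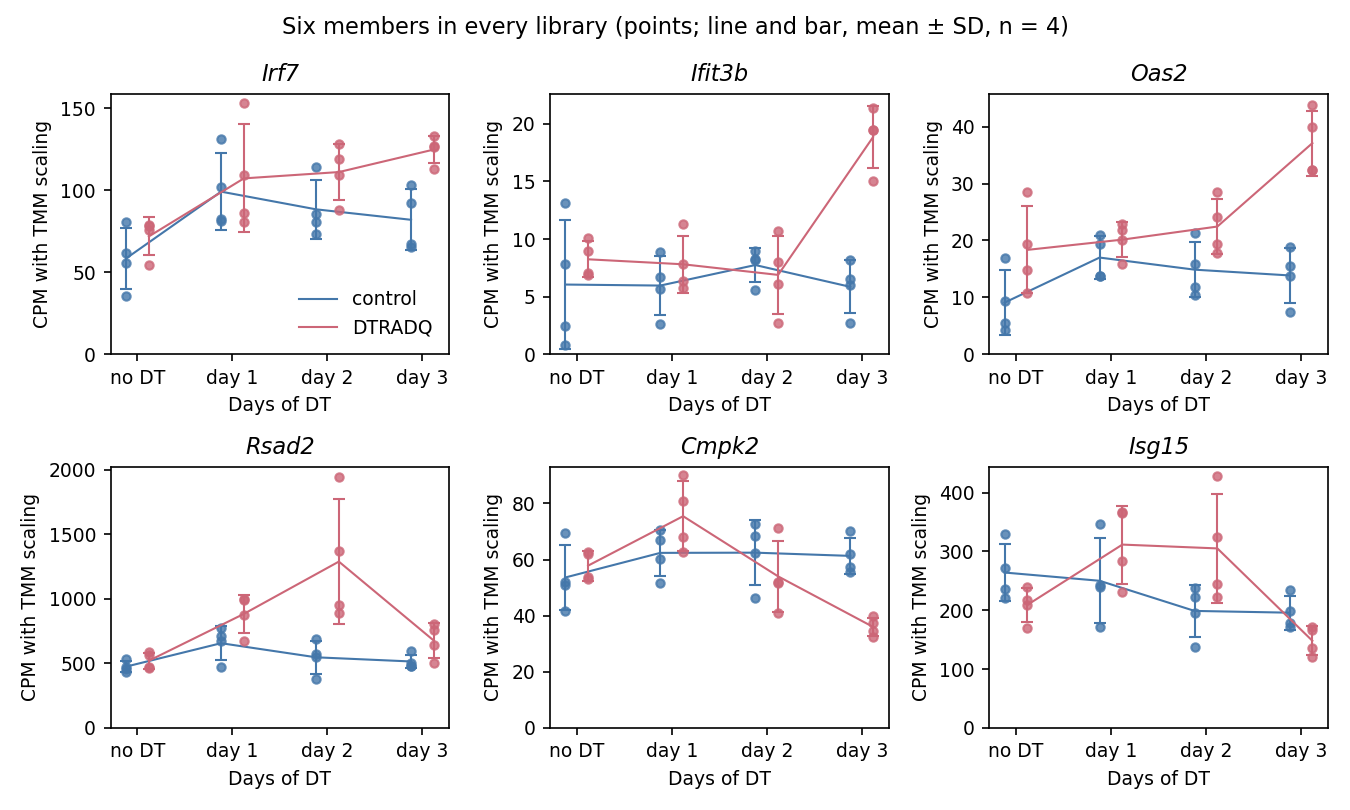
CPM with TMM scaling (vertical axis, from 0) of Irf7, Ifit3b, Oas2, Rsad2, Cmpk2 and Isg15 without DT and after 1, 2 or 3 days (horizontal axis), with each library as a point and mean ± SD as line and bar (n = 4). For Ifit3b and Oas2 the genotypes are without overlap only at day 3. Oas2 was also called higher in untreated DTRADQ with all libraries, at means of 18.3 against 9.09 CPM. Rsad2 is highest in DTRADQ at day 2 with 887 to 1942 CPM, and Cmpk2 is below controls at day 3.

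At day 2 the other called member was Oas3, a large synthetase. It was 72.0, 96.5, 89.2 and 85.5 CPM in DTRADQ and 40.4, 63.0, 44.8 and 47.0 CPM in controls, with a log2 change of 0.81 (SE 0.19, adjusted p = 0.0075). Oas3 and Rsad2 passed at day 2 in all 14 alternative settings tried. At day 3, 6 of the 14 calls held in all 14 settings, those of Oas1g, Oas2, Oas3, Ifit3, Ifit3b and Cmpk2. Without control replicate 4 of day 3, the library with the lowest member levels, 6 members were called in place of 14. Without DTRADQ replicate 2 or control replicate 1 the count was 8. The shares of all genes called without these libraries are not given here. In a model of the day 3 groups alone it was 23, where 36.1% of all genes were called.

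Markers of other cell types were followed as well, beside 22.9% of all genes called at day 3 (8.80% higher and 14.1% lower). The called shares of plasmacytoid dendritic cell markers and of monocyte and macrophage markers were below that. Of 11 plasmacytoid dendritic cell markers, 1 was higher (Ly6d, 0.68, adjusted p = 0.0429), and their summed level was 644 to 1005 CPM in DTRADQ and 506 to 646 CPM in controls. Of 12 monocyte and macrophage markers 1 was higher and 1 lower, with sums of 2001 to 2315 and 1920 to 2275 CPM. Of 10 neutrophil markers 3 were higher, with sums of 108537 to 139759 and 75286 to 126897 CPM, and at day 2 their sums did not overlap, at 117973 to 157253 against 69328 to 87781 CPM. Of 8 erythroid markers 7 were lower at day 3, while their summed level was higher in every DTRADQ library, at 61828 to 94111 against 44847 to 60050 CPM. A sum adds CPM over markers, so it follows the most abundant ones and here does not describe the erythroid list as a whole. Of 7 markers of conventional dendritic cells 2 were lower at day 3, and the DTRADQ sums lay below the controls on each DT day, at 105 to 144 against 165 to 297 CPM at day 1, 95.4 to 134 against 215 to 259 CPM at day 2 and 150 to 201 against 206 to 266 CPM at day 3. Of 8 B lineage markers 2 were higher and 2 lower at day 3, with sums of 940 to 1978 and 615 to 1224 CPM, and of 8 T and NK cell markers 2 were higher, with sums of 249 to 269 and 201 to 265 CPM. Of 6 endothelial markers 5 were higher at day 3, with sums of 132 to 184 against 63.8 to 88.8 CPM. Of 6 skeletal muscle markers tested 5 were higher, with sums of 94.9 to 619 against 24.6 to 49.4 CPM. Both shares were above that of all genes called higher. No listed marker of these types had a mean of 0 in any group. Their part in the changes of the interferon response genes was not tested.

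Within DTRADQ mice, DT was compared with no DT, where the 3 days share the same untreated libraries. At day 3, 8 members rose and 2 fell, while 29.4% of all genes were called (12.5% higher and 16.8% lower), and the lane label also differed between these groups, so it and the day cannot be told apart. The members that rose were Irf7 (0.79), Stat2 (0.45), Ddx60 (0.88), Oas1g (1.37), Oas2 (1.01), Oas3 (0.80), Ifit3 (0.99) and Ifit3b (1.19), with adjusted p from 0.0021 to 0.0486, and those that fell were Herc6 (−0.54) and Cmpk2 (−0.69). At day 1, where 5.48% of all genes were called (1.26% higher and 4.22% lower), Oas3 (0.66) and Rsad2 (0.76) rose and Mx1 fell by 0.87 on the log2 scale. At day 2, where 9.11% were called (4.27% higher and 4.85% lower), Oas3 (0.92), Rsad2 (1.31) and Isg20 (0.82) rose.

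In controls, which lack Cre, DT was followed by 11 members that rose and 4 that fell at day 1, 10 and 4 at day 2, and 5 and 4 at day 3. The shares of all genes called were 33.4% (16.0% higher and 17.4% lower), 28.3% (13.8% and 14.4%) and 30.2% (14.8% and 15.4%). These comparisons share the 4 untreated control libraries, 2 of which stood apart. Without those 2, in a fit whose share of all genes called is not given here, the calls were fewer. They were 4 and 2 at day 1, 4 and 3 at day 2, and 2 and 3 at day 3. Of members called in both, Oas3 was 34.5, 24.1, 22.4 and 35.2 CPM in untreated controls and 50.2, 67.2, 47.4 and 52.0 CPM at day 1, a log2 change of 0.90 with or without them (adjusted p = 7.0e-04 and 0.0065). Herc6 at day 1 changed by 0.97 (0.78 without them) and Ifih1 by 0.81 (0.62 without them). Xaf1 at day 3 was lower by −1.46, or −1.17 without the 2 libraries (adjusted p = 4.5e-04).

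Before any toxin, 7 members were higher and 3 lower in DTRADQ than in control marrow, while 27.1% of all genes were called (12.7% higher and 14.4% lower) and the median of the members was 0.35. Higher were Ifih1 (0.62), Dhx58 (0.60), Oas2 (0.95), Oas3 (0.65), Herc6 (0.61), Parp9 (0.84) and Dtx3l (0.91), and lower were Isg20 (−1.08), Bst2 (−0.83) and Xaf1 (−1.01). These calls rested on the untreated controls. Dtx3l was 71.8, 55.8, 41.8 and 47.4 CPM in DTRADQ and 44.1, 27.3, 16.6 and 25.9 CPM in controls, where replicate 3 was the lowest. Parp9 was 60.2, 52.4, 45.3 and 42.4 CPM against 46.2, 21.4, 18.9 and 23.9 CPM, and control replicate 1 overlapped the DTRADQ libraries. Xaf1 was 29.3, 27.3, 15.6 and 30.1 CPM against 27.8, 57.5, 54.9 and 67.8 CPM, with control replicate 1 again inside the DTRADQ range. Only Ifih1 and Herc6 had groups without overlap, against 11.1% of all genes.

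Leaving out control replicates 3 and 4 brought the untreated calls from 10 to 4, namely Parp9 (0.57, adjusted p = 0.0443), Dtx3l (0.61, adjusted p = 0.0202), Ifi35 (−0.41, adjusted p = 0.0198) and Xaf1 (−0.73, adjusted p = 0.0368), and the median change from 0.35 to 0.10. Those 4 calls are a smaller share of the members than the share of all genes called in that fit, given in the last section. A fit of the 2 untreated groups alone called 0 of the 35, as did that fit with the replicate number as a block (for Dtx3l 1.00, adjusted p = 0.0804), and each of these fits called 0 of all 13308 genes. In the model of all 8 groups 16 members had an unadjusted p under 0.05 for this comparison. DESeq2 called 11, and its share of all genes called is not given here. The median SD was 41.6% of the mean over the members in the untreated controls and between 11.9% and 19.7% in the other 7 groups. In these controls the summed neutrophil markers ran from 114424 to 260701 CPM, against 102598 to 118181 CPM in untreated DTRADQ, and the erythroid markers from 56401 to 272743 against 45823 to 64481 CPM. Such sums follow the most abundant markers of a list. Sums were also higher in the untreated controls, without overlap, for plasmacytoid dendritic cells (817 to 1418 against 516 to 679 CPM, with 4 of 11 markers called lower in DTRADQ), T and NK cells (392 to 783 against 233 to 331 CPM) and monocytes and macrophages (2349 to 2577 against 2077 to 2208 CPM). Their part in the result was not tested.

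**Figure D5:**
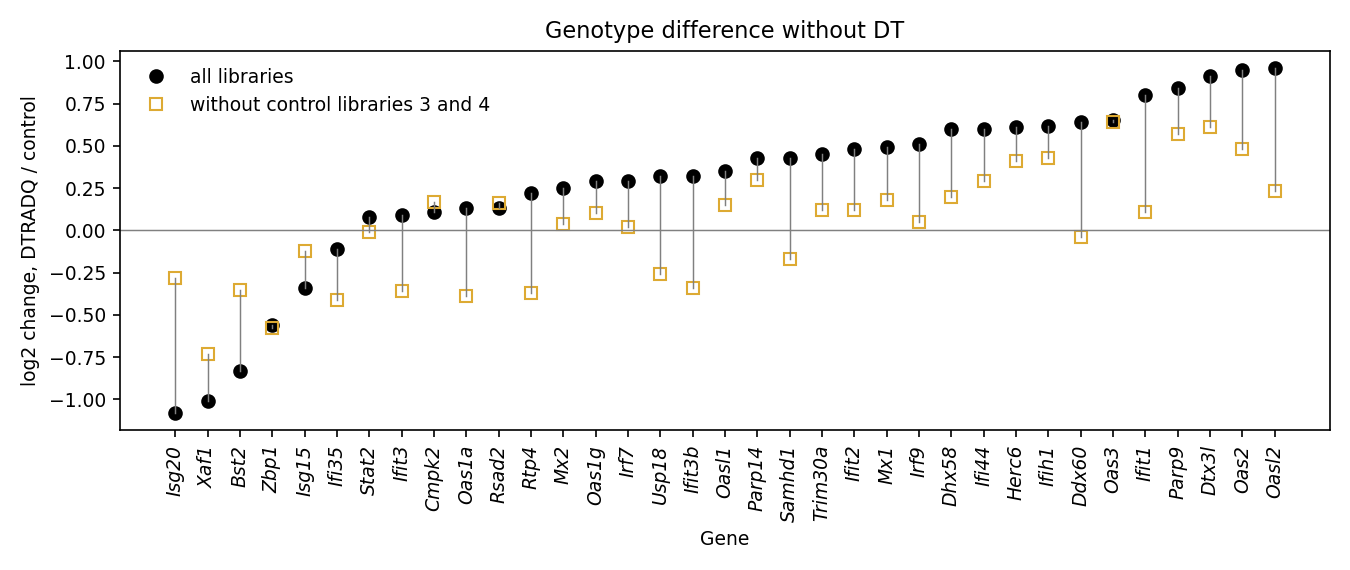
Log2 change between untreated DTRADQ and control marrow (vertical axis) for each member (horizontal axis, in order of the change), with all libraries (filled) and without control replicates 3 and 4 (open squares). Without the 2 libraries the number of positive values goes from 29 to 21 of 35 and the median from 0.35 to 0.10.

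An interaction term tested whether the gap between genotypes on a DT day departed from the untreated gap, and all 3 days share both untreated groups. At day 3, 3 members were higher and 4 lower in this contrast, while 21.0% of all genes were called (9% higher and 12% lower). The 3 higher were Isg20 (1.26), Bst2 (1.02) and Xaf1 (1.38). Each was called lower in untreated DTRADQ and was not called between genotypes at day 3. None of the members called higher between genotypes at day 3 passed this contrast with all libraries. Cmpk2 (−0.88, adjusted p = 0.0062) and Herc6 (−1.12, adjusted p = 6.6e-04) were lower here as at day 3 itself. Without control replicates 3 and 4 of the untreated group, 7 were higher and 2 lower. The share of all genes called in that fit is not given here, so this count has no background beside it. Among the 7 were Ifit3b (2.05, adjusted p = 0.0026), Ifit3 (1.57, adjusted p = 0.0049), Rtp4 (1.5, adjusted p = 0.0131), Oas1a (1.28, adjusted p = 0.0110) and Ddx60 (1.09, adjusted p = 0.0198), none of which passed with all libraries. At day 2, where 11.1% of all genes were called (6.22% higher and 4.88% lower), 3 were higher and 2 lower, and Rsad2 passed with all libraries (1.10, adjusted p = 0.0157) and without the 2 (1.08, adjusted p = 0.0217). At day 1, where 12.3% of all genes were called (6.51% higher and 5.83% lower), 2 were higher and 3 lower, and without the 2 libraries the count was 0.

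The interferons themselves were at the limit of detection. All 16 type I interferon genes listed had a row, none passed the filter on low counts, 8 had no count in any library, and the 16 held 73 counts over all 32 libraries. Ifnb1, which encodes beta interferon, held at most 1 count in any library. Ifna4 (ENSMUSG00000070904, chromosome 4, 88841861 to 88842421), named here after its counts were seen, held 4, 5, 7 and 4 counts in the DTRADQ libraries at day 1 and 0 in each control library at day 1. It was at 0 in all 8 untreated libraries and held 2 counts in each genotype at day 2, 1 in controls and 0 in DTRADQ at day 3. Against a floor of 3 counts over the control group, the day 1 level in DTRADQ was 6.83-fold higher by unscaled library totals. That ratio rests on 20 counts and is imprecise. Without a filter, over 28075 genes, edgeR's adjusted p was 0.010. The alpha genes are near-identical copies of each other, so the assignment of these reads to Ifna4 is uncertain.

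Most genes of the receptor and its signalling pathway did not pass. Of 17 genes tested, 1 was higher at day 3, none at day 2, and 1 lower at day 1. The shares of all genes called on those days were 22.9%, 8.52% and 3.90%. Without the 2 untreated control libraries that stood apart, 4 were higher at day 3, a smaller share than that of all genes in that fit. The receptor chain genes Ifnar1 (0.04) and Ifnar2 (−0.08) did not pass at day 3 (adjusted p = 0.8304 and 0.7643), although Ifnar1 was higher in untreated DTRADQ with all libraries (0.31, adjusted p = 0.0280) and without control replicates 3 and 4 (0.36, adjusted p = 0.0417). The gene that was higher was Ddx58, which encodes the sensor RIG-I, with means of 80.1 ± 7.09 CPM (SD, n = 4) against 42.4 ± 2.59 CPM in control marrow (0.92, SE 0.22, adjusted p = 0.0029). Irf5, a factor downstream of Toll-like receptors, was lower at day 1 (−0.66, adjusted p = 0.0024).

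Of 51 further interferon-induced genes tested, 14 were higher and 3 lower at day 3, 2 and 3 at day 2, and 2 and 1 at day 1, with a median of 0.27 at day 3. The shares of all genes called were 22.9%, 8.52% and 3.90% on those days, and the counts at days 1 and 2 were close to them. Without the 2 untreated control libraries that stood apart, 19 were higher and 3 lower at day 3, 6 and 6 at day 2, and 3 and 4 at day 1. The share of all genes called was also larger in that fit at days 2 and 3, as given above. For day 1 that share is not given here, so the day 1 counts have no background beside them. Helz2 (0.66, adjusted p = 0.0047) and Slfn4, of the Schlafen family (1.21, adjusted p = 0.0099), were higher at day 3. Ifi205, a member of the HIN family of DNA-binding proteins, was lower at each day, at 1.03 ± 0.433 CPM against 4.94 ± 1.09 CPM at day 3 (−2.24, SE 0.29, adjusted p = 1.2e-06), with −1.47 at day 1 and −1.56 at day 2. Cxcl10, a chemokine for T cells, was higher at day 1 (1.79, adjusted p = 0.0065), and Sp140 at all 3 days (0.45, 0.56 and 0.35).

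Of 21 genes of the interferon gamma pathway tested, 2 were higher and 2 lower at day 3, which is no larger a share than the 22.9% of all genes called. Ifng itself (1.25, adjusted p = 0.0479) and the guanylate-binding protein Gbp9 (0.73, adjusted p = 0.0418) were higher, and Cxcl9 was lower (−1.38, adjusted p = 0.0014). Irf1 did not pass (0.32, adjusted p = 0.2684). Of 15 genes of class I antigen presentation, none was called at day 3 by edgeR's quasi-likelihood test. Without untreated control replicates 3 and 4, 2 were higher, a smaller share than that of all genes in that fit. Ifnlr1, a chain of the receptor for type III interferon, was higher at day 2 (0.80) and day 3 (0.90, adjusted p = 8.0e-04).

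Over the 32 libraries, the genes outside the list whose log2 levels most resembled the mean of the members were Sp100 (Pearson r = 0.90), Ddx58 (0.89), Taok3 (0.88), Irf1 (0.88) and Parp6 (0.87). Without control replicates 3 and 4 of the untreated group, over 30 libraries, the values were 0.80, 0.76, 0.74, 0.77 and 0.75. These libraries share depth, batch and group differences, so the values describe likeness only.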

How the data were processed

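Femur marrow RNA of 32 mice, 1 library each, was amplified with the SMARTer kit and sequenced, per the labels' protocols. Per the submitters' processing notes, the tools were STAR 2.0.4b, featureCounts 1.45 from Subread and bcl2fastq, on the GRCm38 build. Which annotation release and strand option were used, and how multi-mapping reads were counted, is not given in the sources used here. The deposited tables hold raw read counts per gene, with the authors' CPM and RPKM values beside them, which recomputation from the counts matched. The deposited counts alone were used, and every row names a gene.

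Libraries were grouped by the genotype and DT day in their labels. Counts were tested in edgeR 4.0.16 (R 4.3.3) with TMM scaling, a minimum count of 10 in filterByExpr and 1 quasi-likelihood model of the 8 groups, over 14527 genes. Tests were two-sided, adjusted by Benjamini-Hochberg within each contrast, with a threshold of 0.05. The SE of a log2 change was derived from its F statistic. CPM values printed use TMM-scaled library sizes. Simulated counts were used to check the scripts. DESeq2 1.42.0 and the other alternatives are covered in the closing section. Each library is a separate mouse, and no pair of libraries of a group agreed within sampling noise (lowest chi-square per gene 9.69).

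The 35 members and all gene lists were chosen with earlier results of these data known. Of each role, the 2 members with the smallest p between genotypes after DT or without it were named, with Irf7, Stat2, Isg15 and Ifit3. Pathway genes were named if among the 3 smallest p of their list and past the threshold, with Ifnar1, Ifnar2, Ifnb1 and Irf1 always given. A further listed gene is not reported here. Others were named after their values were seen. Promoters are from RefSeq.

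Replicate numbers recur in each group, and nothing in the labels says what they mark. Deviations from group means of same-numbered libraries correlated at 0.14 to 0.18 in the untreated groups, which met the rule for treating the numbers as pairs, at −0.05 to 0.04 at day 1, −0.16 to 0.11 at day 2 and 0.08 to 0.12 at day 3.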

Additional observations from a re-analysis of the deposited data

Results flagged for a closer look

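Of 280 sets of 4 libraries, each 1 member in 1 group, 11 had a library far from the other 3 by Dixon's test, where chance gives about 1 in 20. In untreated DTRADQ marrow, Irf7 had a lowest library of 54.5 CPM where the others held 75.9 to 78.6 CPM, Usp18 a highest of 91.2 CPM (others 67.9 to 70.9) and Mx1 a highest of 10.3 CPM (others 6.58 to 6.98). In untreated controls, Ifi35 had a lowest library of 18.2 CPM (others 72.2 to 80.7). At day 1, Ifi44 had a highest DTRADQ library of 9.82 CPM (others 3.98 to 4.82). Trim30a at day 1 had a highest DTRADQ library of 98.7 CPM (others 80.1 to 82.2) and a lowest control of 64.2 CPM (others 92.0 to 93.9), and Bst2 had a lowest control of 30.4 CPM (others 41.7 to 42.6). At day 2, Ifit1 had a lowest control of 43.5 CPM (others 61.4 to 63.9) and Xaf1 a highest control of 36.9 CPM (others 28.5 to 29.6). At day 3, Irf9 had a highest DTRADQ library of 167 CPM (others 141 to 144).

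The genotype effect after DT differed from that before DT, by the interaction term in edgeR's quasi-likelihood test, for 17 combinations of member and day. At days 1, 2 and 3 this was 14.3%, 14.3% and 20% of the members. The shares of all genes tested were close to these, at 12.3%, 11.1% and 21.0%. At day 1 the log2 differences were −0.67 for Ifih1, −1.21 for Mx1, 1.53 for Isg20, −0.85 for Dtx3l and 0.88 for Xaf1, with adjusted p from 0.0054 to 0.0455. At day 2 they were −0.93 for Ifih1, 0.95 for Isg15, 1.10 for Rsad2, 1.81 for Isg20 and −0.86 for Parp9 (adjusted p 0.0018 to 0.0373). At day 3 they were −0.66 for Ifih1, −1.12 for Herc6, −0.88 for Cmpk2, 1.26 for Isg20, 1.02 for Bst2, −0.81 for Dtx3l and 1.38 for Xaf1 (adjusted p 6.6e-04 to 0.0214). All share the 4 untreated control libraries. Of these 17, 6 passed without control replicates 3 and 4, namely Ifih1, Rsad2 and Isg20 at day 2 and Herc6, Cmpk2 and Xaf1 at day 3.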

How the results depend on the processing

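Over 7245 repeats of a single member's test, 6802 stayed on the same side of the threshold with the same direction, 266 lost a call, 175 gained one and 2 reversed. Both reversals came without untreated control replicates 3 and 4, an alternative chosen after seeing the data: Isg20 at day 1 within controls (0.04, adjusted p = 0.9334) and Samhd1 in the day 3 interaction (0.62, adjusted p = 0.0216). Without those 2 libraries the members called between genotypes numbered 4 untreated, 1 at day 1, 5 at day 2 and 18 at day 3. For DT against no DT they were 6, 7 and 5 in controls and 7, 5 and 15 in DTRADQ over days 1 to 3, and for the interaction 0, 3 and 9. DESeq2 called 4 members at day 2 and 5 for day 1 against no DT within DTRADQ. With the replicate number as a block in the model of all groups, 12, 0, 4 and 15 members were called between genotypes untreated and at days 1, 2 and 3. With the block in the untreated groups only, added after seeing the data, the count was 0. Of the 8 libraries of a day, 4 correlated best with their own number untreated, 0 at day 1, 2 at day 2 and 6 at day 3. In models of only the groups compared, the counts were 0 untreated, 4 at day 2, 23 at day 3, 5, 0 and 1 for days 1 to 3 within controls, 9 and 18 for days 1 and 3 within DTRADQ, and 0 and 2 for the interaction at days 1 and 2. These models estimate the spread from fewer libraries. Leaving out 1 library gave ranges of 7 to 21 untreated, 0 to 0 at day 1, 2 to 3 at day 2 and 6 to 16 at day 3. Within controls the ranges were 12 to 23, 9 to 24 and 6 to 20, within DTRADQ 0 to 3, 2 to 4 and 6 to 9, and for the interaction 1 to 16, 3 to 17 and 6 to 10. The share of all genes called can differ between settings too, so these counts alone do not show a change particular to the members. Where not stated, the cause was not tested. The lowest count in any library was 2 for Oas1g, 4 for Ifit3b and 7 for Mx2, which limits their precision.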

Other observations

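In untreated DTRADQ marrow, 12 of 51 further interferon-induced genes were higher and 5 lower than in controls, and 5 of 21 genes of the interferon gamma pathway were higher, where 27.1% of all genes were called by edgeR's quasi-likelihood test. Without control replicates 3 and 4, 3 of the 51 were higher and 5 lower, and 0 of the 21 were called, where 12.5% of all genes were. Tlr7, a sensor of single-stranded RNA, was higher with all libraries (1.03) and without those 2 (1.22, adjusted p = 6.6e-04), and Ifi27 was lower in both (−0.77, and −0.47 with adjusted p = 0.0102). Tbk1, the kinase that activates IRF3, was called higher with all libraries (0.76) but not without the 2 (0.43, adjusted p = 0.0617), as was Ifngr2, a chain of the interferon gamma receptor (0.87, then 0.56, adjusted p = 0.0653). Irf3 (−0.68, then −0.19, adjusted p = 0.4049) and Ifitm3, which blocks virus entry (−1.14, then −0.62, adjusted p = 0.0554), were called lower only with all libraries. A fit of the untreated groups alone called none of 13308 genes.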
